A study of Homo sapiens with 6 samples.

Results

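The genes described here were 10 parts of the YAP/TAZ branch of Hippo signaling. They were the coactivators YAP1 and WWTR1 (the gene of TAZ), the DNA-binding partners TEAD1 and TEAD4, the regulators LATS2, AJUBA and AMOTL2, and the target genes CCN1, CCN2 and ANKRD1. They were taken by gene symbol as known effectors and targets of the pathway, and made up 10 of the 67140 gene identifiers in the table. RNA was sequenced from KYSE150 cells, an established line of human esophageal squamous cell carcinoma, in 3 samples carrying the control hairpin (shCtrl) and 3 carrying the hairpin against the lncRNA AC007128.1 (shAC007128.1). Per the labels and the study's methods, all 6 samples were grown in RPMI medium with fetal bovine serum, and stable hairpin lines were made with lentivirus and puromycin. The design held 1 hairpin and 1 control hairpin. The labels call the cells transfected and give every sample the same growth text (naming shCtrl) and treatment text (naming shAC007128.1), so the groups follow the sample titles. They do not say whether the 3 samples of a group were separate cultures, so the p-values measure the spread between these samples, which may be technical.

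In the Hippo pathway, the kinases LATS1 and LATS2 phosphorylate YAP1 and TAZ and so hold them in the cytoplasm, where they are degraded. Unphosphorylated YAP1 and TAZ enter the nucleus and bind TEAD factors, which carry them to target genes for matrix and growth proteins. Several targets, among them LATS2 and AMOTL2, are themselves inhibitors of YAP1 and TAZ and close a feedback loop. The pathway reads cell density, cell shape and adhesion, and YAP1 is often amplified or overactive in squamous carcinomas. Much of this control acts on protein phosphorylation and location, which RNA levels do not measure.

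The libraries summed to 72354339, 78610457 and 65140326 counts in shCtrl replicates 1, 2 and 3, and 57880388, 55764405 and 60158244 in shAC007128.1 replicates 1, 2 and 3. All values below are CPM, counts relative to a library's total after TMM scaling, in which 3 counts, taken as the smallest detectable level, equal 0.0373 to 0.0546 CPM. This level covers counting error only. The counts are estimates, and in shCtrl replicate 1 a count of 4 (1355 genes) was more common than 3 (761) or 5 (993), so a count may not be a single fragment. All 9 squamous epithelial markers were at 32.5 CPM or more in every sample, and KRT5, a basal keratin, was the highest of them in mean CPM, which takes no account of gene length. The summed level of these markers was 2066, 2038 and 2098 CPM in shCtrl samples and 3512, 3166 and 2759 CPM in shAC007128.1 samples. Most markers of fibroblasts and endothelium were scarce. Below 1 CPM in every sample were 5 of 7 fibroblast markers and 3 of 4 endothelial markers. Summed fibroblast markers were at 15.3, 15.9 and 16.2 CPM in shCtrl and 20.9, 23.9 and 22.6 CPM in shAC007128.1 samples, endothelial ones at 2.12, 2.72 and 3.11 against 0.302, 2.02 and 1.2 CPM, and leukocyte ones at 68, 65.9 and 59.1 against 23.9, 14.5 and 16.6 CPM. The most abundant of these lists were COL1A1 (13.3 to 18.6 CPM over the samples), VWF (0.231 to 2.45 CPM) and CD68 (13.5 to 67.3 CPM), the last a gene that shares 1852 of its 2163 exonic bases with other genes. All samples were of the KYSE150 line, so counts of fibroblast, endothelial or leukocyte markers do not by themselves show other cell types. The source of these counts was not tested.

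The hairpin is shown because it defines the comparison. Its target stands in capitals, followed by the loop and the returning arm.
shAC007128.1: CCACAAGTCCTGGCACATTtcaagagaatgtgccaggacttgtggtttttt
The 19-base target matched hg38 at chr7:8343202-8343220 on the plus strand, in an exon of AC007128.1. It was found, on either strand, in 0 of 67 annotated transcripts of the 10 member genes. The targeted gene itself had few counts, with 69, 33 and 53 counts in shCtrl replicates 1, 2 and 3 and 18, 37 and 15 counts in shAC007128.1 replicates 1, 2 and 3. The lowest shCtrl sample lay below the highest shAC007128.1 sample, so the groups overlapped. On the log2 scale the difference was -0.77 (standard error, SE, 0.51, adjusted p = 0.271 by edgeR), with an exact permutation p of 0.2, where 3 samples against 3 can give no less than 0.1. It ranged from -0.51 without shCtrl replicate 1 to -1.29 without shAC007128.1 replicate 2 (adjusted p = 0.0959 by edgeR) and passed in 0 of the 17 fits. A lower level of AC007128.1 was therefore not detected in these libraries, and 782 of its 1853 exonic bases are shared with other genes.

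All 10 members passed the filter on low counts. With a limit of adjusted p at most 0.05 and a fold of at least 2, which is what "called" means here, 0 members were higher and 2, CCN2 and AMOTL2, were lower in shAC007128.1 cells. Over all 19254 genes tested, 5.57% were called higher and 10.1% lower. DESeq2 and limma-voom also called 0 members higher and 2 lower, and at an unadjusted p the edgeR count of higher members with this fold was 0. At an adjusted p of at most 0.05 and any fold, 3 members rose (WWTR1, TEAD4, CCN1) and 3 fell (LATS2, CCN2, AMOTL2), against 21% of all genes higher and 19.8% lower. With a sample left out, 1 to 3 members rose and 2 to 4 fell. Every shAC007128.1 sample lay above every shCtrl sample for 4 members and below for 3, where the shares over all genes were 27% and 28.2%. The member counts are to be read against these shares. The median log2 fold change was 0.02 over the members and -0.02 over all genes tested, and the summed level of the members was 1571, 1550 and 1600 CPM in shCtrl and 1566, 1622 and 1491 CPM in shAC007128.1 samples.

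**Figure D1:**
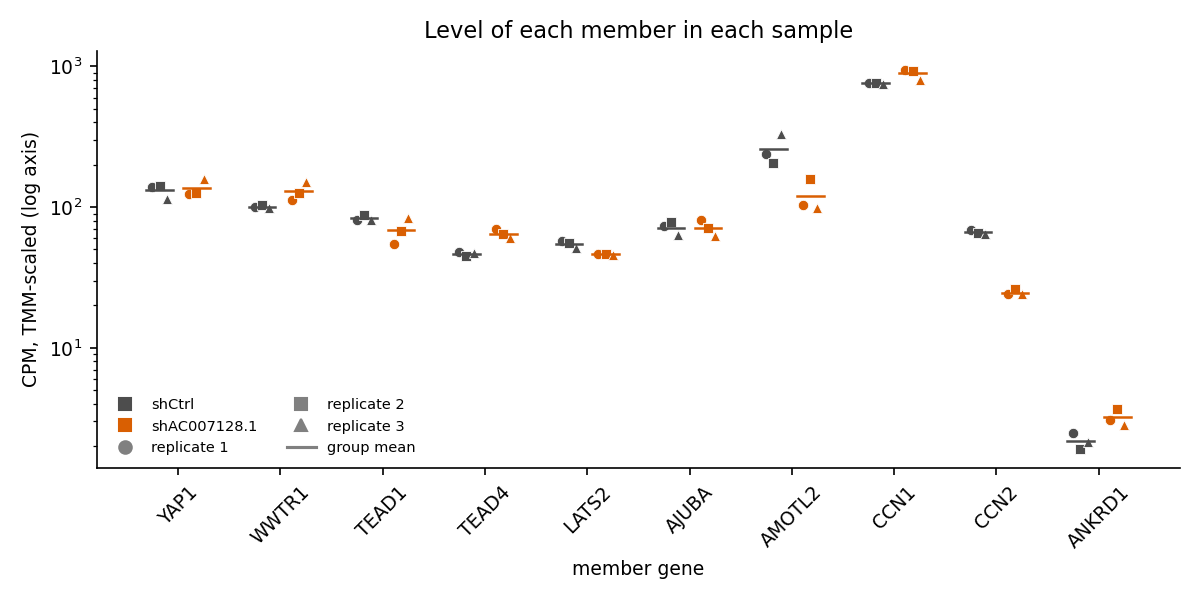
TMM-scaled CPM of the 10 members (log axis) in each of the 3 shCtrl (grey) and 3 shAC007128.1 (orange) samples, with marker shapes for replicates and lines for group means. CCN1 was the highest in CPM and ANKRD1 the lowest in every sample, and the groups lie furthest apart for CCN2 and AMOTL2.

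CCN2, also known as CTGF, encodes a secreted matricellular protein and is the target most often read as YAP activity. It is described first among the targets because it had the largest difference. CCN2 stood at 68.9, 65.6 and 64.5 CPM in shCtrl replicates 1, 2 and 3 and at 24, 26 and 24 CPM in shAC007128.1 replicates 1, 2 and 3. The samples of each group were nearly level with each other, and the groups lay far apart with no overlap. These levels rest on 4373 to 5273 counts per shCtrl sample and 1349 to 1426 counts per shAC007128.1 sample. CCN2 fell by 1.43 on the log2 scale (SE 0.08, adjusted p = 3.97e-05 by edgeR), a 2.69-fold lower level seen in 3 of 3 samples. Of all genes tested, 9.18% had a lower log2 fold change. CCN2 (ENSG00000118523) lies on the minus strand at chr6:131948176-131951372 of hg38, and shares 278 exonic bases with LINC01013 on the opposite strand, which had 0 counts in every sample.

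CCN1, or CYR61, is the paralog of CCN2 and also a common target, yet it did not follow it. CCN1 was at 761, 765 and 749 CPM in shCtrl replicates 1, 2 and 3 and at 947, 931 and 804 CPM in shAC007128.1 replicates 1, 2 and 3. All 3 shAC007128.1 samples were above the controls, the replicate numbered 3 by much less than the rest. CCN1 rose by a log2 fold change of 0.24 (SE 0.07, adjusted p = 0.0365 by edgeR). This small rise kept its direction in all 17 fits but missed the threshold in 9 of them, with adjusted p from 0.000525 to 0.157, and in the 6 fits that each left out a sample it passed only without shAC007128.1 replicate 3.

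ANKRD1, a nuclear ankyrin-repeat protein first studied in heart muscle, was the lowest member. It was at 2.49, 1.91 and 2.15 CPM in shCtrl replicates 1, 2 and 3 and at 3.06, 3.7 and 2.84 CPM in shAC007128.1 replicates 1, 2 and 3. The groups did not overlap, with the shAC007128.1 samples higher. The difference did not pass the test, with a log2 fold change of 0.55 (SE 0.20, adjusted p = 0.0632 by edgeR), and it stayed positive in all 17 fits with adjusted p from 0.0542 to 0.193. The 3 secreted or nuclear targets thus gave 1 fall, 1 small rise and 1 difference that did not pass.

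Promoters of CCN2 and ANKRD1 are printed because both are classic TEAD targets and yet only CCN2 fell. RefSeq promoter entries (build GRCh38.p14) matched 7 of the 10 members, with 10 start sites among them, and not TEAD1, TEAD4 and CCN1. The 250 bases before each start were searched on both strands for the TEAD core GGAATG and the CArG box bound by SRF. They were also searched for TGANTCA, a looser pattern than the AP-1 element, which has C or G at its centre. Capitals mark the TEAD core, and each sequence is read 5′ to 3′ on the gene's strand, chr6:131951373-131951622 (minus) for CCN2 and chr10:90921088-90921337 (minus) for ANKRD1.
CCN2: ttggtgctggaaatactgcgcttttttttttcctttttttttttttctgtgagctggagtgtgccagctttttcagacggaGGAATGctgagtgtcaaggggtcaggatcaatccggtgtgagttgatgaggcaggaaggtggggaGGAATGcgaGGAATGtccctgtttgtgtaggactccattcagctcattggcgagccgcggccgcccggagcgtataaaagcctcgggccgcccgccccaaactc
ANKRD1: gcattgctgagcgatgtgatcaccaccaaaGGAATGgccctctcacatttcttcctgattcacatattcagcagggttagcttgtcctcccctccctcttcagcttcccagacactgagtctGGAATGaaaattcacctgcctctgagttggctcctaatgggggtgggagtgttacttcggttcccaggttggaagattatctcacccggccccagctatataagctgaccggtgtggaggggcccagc
CCN2 held 3 TEAD cores, starting 169, 104 and 95 bases before the start site, and ANKRD1 held 2, starting 220 and 128 bases before it. At least 3 cores were present in 29 of all 35116 promoters of this length (0.0826%), and at least 1 core in 11.9%. ANKRD1 also held 1 match to TGANTCA, which 6.57% of promoters had, and CCN2 held 0. That match has T at its centre and is not the AP-1 element itself. Matches to the CArG box, present in 1.16% of promoters, were found in 0 of the 10 member promoters. Single TEAD cores were found before the start of YAP1, before 1 of 2 starts of AJUBA and, on the opposite strand, before 1 of 2 starts of AMOTL2, while LATS2 and both starts of WWTR1 had 0. The stretches with these single cores were in part exonic. For YAP1 the stretch lay wholly in exons of ENSG00000277459, and for AJUBA wholly in exons of AJUBA itself. For AMOTL2, 115 of its bases lay in exons of AMOTL2. The cores did not overlap the TGANTCA match. A match of letters is a description of sequence only, and binding was not measured.

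AMOTL2, an angiomotin family scaffold that binds YAP1 at cell junctions and is also a YAP target, was the other member called lower. AMOTL2 stood at 238, 206 and 329 CPM in shCtrl replicates 1, 2 and 3 and at 104, 158 and 99.2 CPM in shAC007128.1 replicates 1, 2 and 3. All shAC007128.1 samples were below all shCtrl samples, but the spread within each group was wide, with shCtrl replicate 3 far above its group and shAC007128.1 replicate 2 nearest the controls. AMOTL2 fell by 1.10 on the log2 scale (SE 0.23, adjusted p = 0.00766 by edgeR), a 2.14-fold lower level. It passed the adjusted p limit in all 17 fits, but its fold slipped under 2 without shCtrl replicate 3 (log2 fold change -0.89, adjusted p = 0.0238 by edgeR) and without shAC007128.1 replicate 3 (log2 fold change -0.99, adjusted p = 0.0275 by edgeR). Over all fits the log2 fold change lay between -1.34 and -0.89. The gene lies at chr3:134355347-134375479 on the minus strand.

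LATS2, the kinase that phosphorylates YAP1 and TAZ and is induced by them, was at 57.5, 55.6 and 51.3 CPM in shCtrl replicates 1, 2 and 3 and at 46.3, 46.4 and 45.5 CPM in shAC007128.1 replicates 1, 2 and 3. The shAC007128.1 samples were almost equal to each other and all below the controls. LATS2 fell by 0.25 on the log2 scale (SE 0.08, adjusted p = 0.0397 by edgeR), to 84.1% of control. It missed the threshold in 5 of 17 fits, among them those without shCtrl replicate 1 or 2 and without shAC007128.1 replicate 1 or 2, with adjusted p from 0.0127 to 0.142. Its paralog LATS1 was at 66.7 to 69.3 CPM in shCtrl and 58.1 to 64.8 CPM in shAC007128.1 samples, a log2 fold change of -0.15 that did not pass (adjusted p = 0.174 by edgeR). Without shAC007128.1 replicate 3 it passed at -0.19 (adjusted p = 0.0435 by edgeR, with 0.0435 to 0.357 over the fits).

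AJUBA encodes a LIM-domain protein that binds LATS kinases and restrains them at junctions. AJUBA was at 73.6, 77.9 and 63.4 CPM in shCtrl replicates 1, 2 and 3 and at 81.4, 70.8 and 62.2 CPM in shAC007128.1 replicates 1, 2 and 3. The groups overlapped fully, and the replicate numbered 3 was the lowest in each. The log2 fold change was -0.00 (SE 0.13, adjusted p = 0.983 by edgeR), and its sign depended on which samples were kept.

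**Figure D2:**
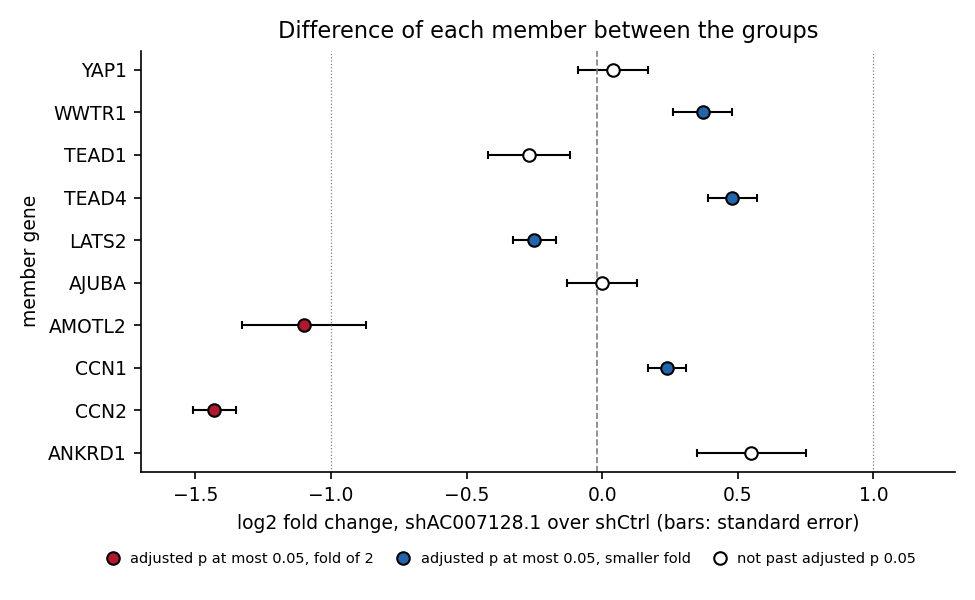
Log2 fold change of each member, shAC007128.1 over shCtrl, with standard errors from the edgeR fit over all genes. The dashed line is the median of all genes tested (-0.02), dotted lines mark a fold of 2, red points were called, blue points passed adjusted p at a smaller fold and white points did not pass. CCN2 (-1.43) and AMOTL2 (-1.10) lie beyond the fold limit.

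No coactivator or TEAD gene reached a fold of 2. YAP1 was at 140, 141 and 115 CPM in shCtrl replicates 1, 2 and 3 and at 123, 127 and 158 CPM in shAC007128.1 replicates 1, 2 and 3. The groups overlapped, and the lowest and the highest sample were the replicates numbered 3. Its log2 fold change was 0.04 (SE 0.13, adjusted p = 0.823 by edgeR), and the sign turned in 4 of 17 fits. YAP1 shares 639 exonic bases with ENSG00000277459 and ENSG00000254422 on the opposite strand, whose counts summed over the 6 libraries came to 1.29% and 0.0495% of its own.

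WWTR1, whose product TAZ binds the same TEAD factors as YAP1, was at 99.8, 104 and 98.2 CPM in shCtrl replicates 1, 2 and 3 and at 113, 127 and 151 CPM in shAC007128.1 replicates 1, 2 and 3. All shAC007128.1 samples were above the controls, and replicate 3 was the highest. WWTR1 rose by a log2 fold change of 0.37 (SE 0.11, adjusted p = 0.0322 by edgeR), a 1.29-fold higher level. The rise kept its direction in all 17 fits, from 0.24 without shAC007128.1 replicate 3 to 0.46 without shAC007128.1 replicate 1. It missed the threshold in 7 fits, among them those that left out each shCtrl replicate in turn and the fit without shAC007128.1 replicate 2, with adjusted p from 0.015 to 0.105.

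TEAD4 gave the firmest rise of the effectors. TEAD4 was at 47.6, 44.6 and 47.2 CPM in shCtrl replicates 1, 2 and 3 and at 70.1, 64.1 and 60.6 CPM in shAC007128.1 replicates 1, 2 and 3. The groups lay well apart, and each group was narrow. TEAD4 rose by a log2 fold change of 0.48 (SE 0.09, adjusted p = 0.00389 by edgeR), a 1.4-fold higher level that passed in all 17 fits. TEAD1 went the other way without passing. It was at 81, 87.8 and 80.7 CPM in shCtrl replicates 1, 2 and 3 and at 55.1, 67.8 and 84 CPM in shAC007128.1 replicates 1, 2 and 3. Replicates 1 and 2 of shAC007128.1 were below the controls, and replicate 3 lay among them. The log2 fold change was -0.27 (SE 0.15, adjusted p = 0.191 by edgeR). Without shAC007128.1 replicate 3 it was -0.45 and passed (adjusted p = 0.0162 by edgeR, with 0.0162 to 0.431 over the fits). Without shAC007128.1 replicate 1 it was -0.13 (adjusted p = 0.431 by edgeR). Of the remaining TEAD genes, TEAD2 had a log2 fold change of -0.34 (adjusted p = 0.117 by edgeR), passing only without shAC007128.1 replicate 1 (-0.49, adjusted p = 0.0331 by edgeR, with 0.0331 to 0.285 over the fits). TEAD3 had 0.02 (adjusted p = 0.862 by edgeR).

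Levels of different genes were compared as CPM per kilobase of annotated exon. Among the members in shCtrl cells, CCN1 was the highest per length at 205 ± 2.27 (SD, n = 3), followed by AMOTL2 at 39.8 ± 9.81 and CCN2 at 28.4 ± 0.999. YAP1 at 21 ± 2.34 and TEAD4 at 20.4 ± 0.714 came next and did not differ beyond their spread. AJUBA at 12.2 ± 1.27 and WWTR1 at 12 ± 0.356 were also within each other's spread. LATS2 was at 9.77 ± 0.569, TEAD1 at 7.77 ± 0.375 and ANKRD1 at 1.22 ± 0.161. In shAC007128.1 cells the order per length changed between CCN1 and LATS2. There TEAD4 at 28.5 ± 2.11 came next after CCN1 and stood above YAP1 at 21.6 ± 3.09 in every sample pair. CCN2 at 10.5 ± 0.481 came to the level of AJUBA at 12.1 ± 1.64, with overlapping samples. AMOTL2 was then at 18.6 ± 5.03, below TEAD4 in every sample pair and overlapping YAP1. WWTR1 at 15.6 ± 2.31 overlapped AMOTL2 as well. CCN1 stayed the highest at 242 ± 21.2, with LATS2 at 8.21 ± 0.0892, TEAD1 at 6.44 ± 1.35 and ANKRD1 at 1.79 ± 0.249 at the low end.

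Within the TEAD family TEAD4 was the most abundant per length in both groups. TEAD2 at 11.9 ± 1.47, TEAD3 at 9.88 ± 0.311 and TEAD1 at 7.77 ± 0.375 followed in shCtrl cells, where TEAD1 lay below TEAD3 in every sample. In shAC007128.1 cells TEAD3 was at 10 ± 0.738 and TEAD2 at 9.45 ± 1.63, which overlapped. The length of the Ensembl canonical transcript in place of all exons was a choice added after the data were seen. With it, TEAD4 came to 27.2 ± 0.95 and YAP1 to 24.5 ± 2.73 CPM per kilobase in shCtrl cells. The order of their means thus depends on the length used, and their samples overlapped with either length. Other comparisons changed with the length as well. CCN2 at 28.4 ± 0.999 then overlapped TEAD4 in shCtrl cells, whereas per kilobase of all exons it lay above TEAD4 in every sample pair. In shCtrl cells WWTR1 at 20 ± 0.591 then lay above AJUBA at 17.2 ± 1.79 in every sample pair. In shAC007128.1 cells CCN2 at 10.5 ± 0.481 lay below AJUBA at 17.1 ± 2.31, and TEAD2 at 12.9 ± 2.24 above TEAD3 at 10.3 ± 0.754, neither with overlap. WWTR1 at 25.9 ± 3.83 and AMOTL2 at 24.7 ± 6.69 still overlapped. WWTR1 also overlapped YAP1 at 25.2 ± 3.61 in these cells, whereas per kilobase of all exons YAP1 lay above WWTR1 in every sample pair.

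**Figure D3:**
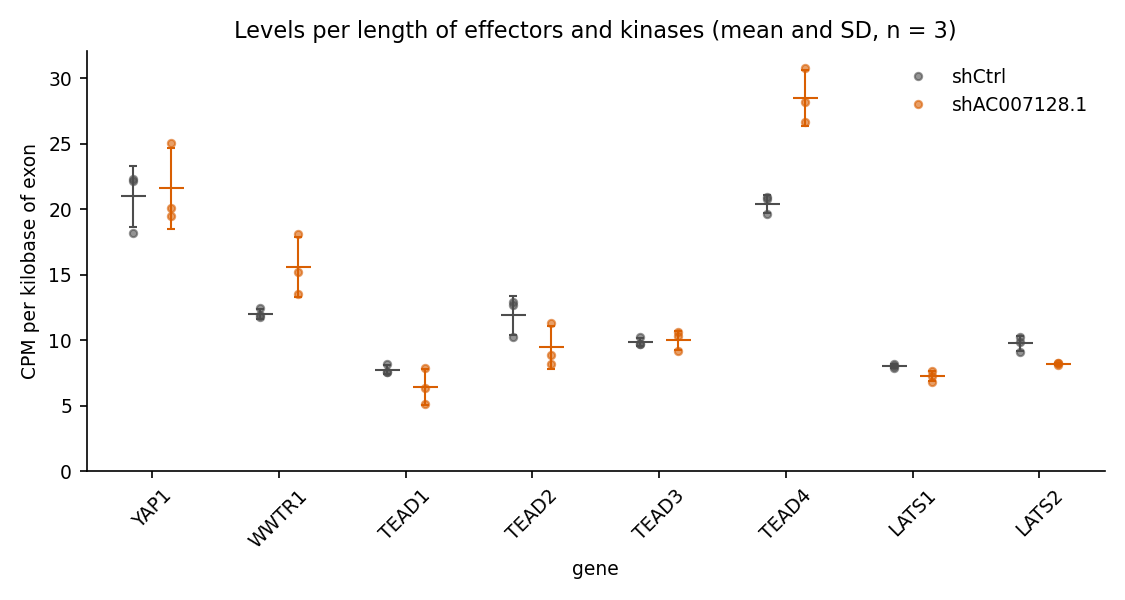
CPM per kilobase of annotated exon for YAP1, WWTR1, the 4 TEAD genes and the LATS kinases, with points for samples and bars for the mean and SD (n = 3 per group). YAP1 and TEAD4 lead, and TEAD4 is set apart from YAP1 in the shAC007128.1 samples.

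Ratios between paired family genes within a library need no scaling between libraries, so 4 pairs were compared in this way. The log2 ratio of CCN2 to CCN1 counts was -3.47, -3.54 and -3.54 in shCtrl replicates 1, 2 and 3 and -5.30, -5.16 and -5.06 in shAC007128.1 replicates 1, 2 and 3. All 3 shAC007128.1 libraries thus held less CCN2 relative to CCN1, a mean difference of -1.66. For TEAD4 to TEAD1 the log2 ratio was -0.77, -0.98 and -0.77 in shCtrl and 0.35, -0.08 and -0.47 in shAC007128.1 replicates, a mean difference of 0.77. Here too the groups did not overlap, though shAC007128.1 replicate 3 came near the controls. For WWTR1 to YAP1 it was -0.49, -0.44 and -0.23 in shCtrl and -0.12, -0.01 and -0.07 in shAC007128.1 replicates, a mean difference of 0.32 with no overlap. The LATS2 to LATS1 ratio differed by -0.10 with overlapping groups, and by -0.15 to -0.06 with a sample left out. Each of the first 3 pairs had an exact permutation p of 0.1, the smallest that 3 against 3 can give, and the LATS pair had an exact p of 0.2. After Benjamini-Hochberg adjustment over the 4 pairs the permutation p-values were 0.133 and 0.2, so a design of this size could not pass 0.05.

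**Figure D4:**
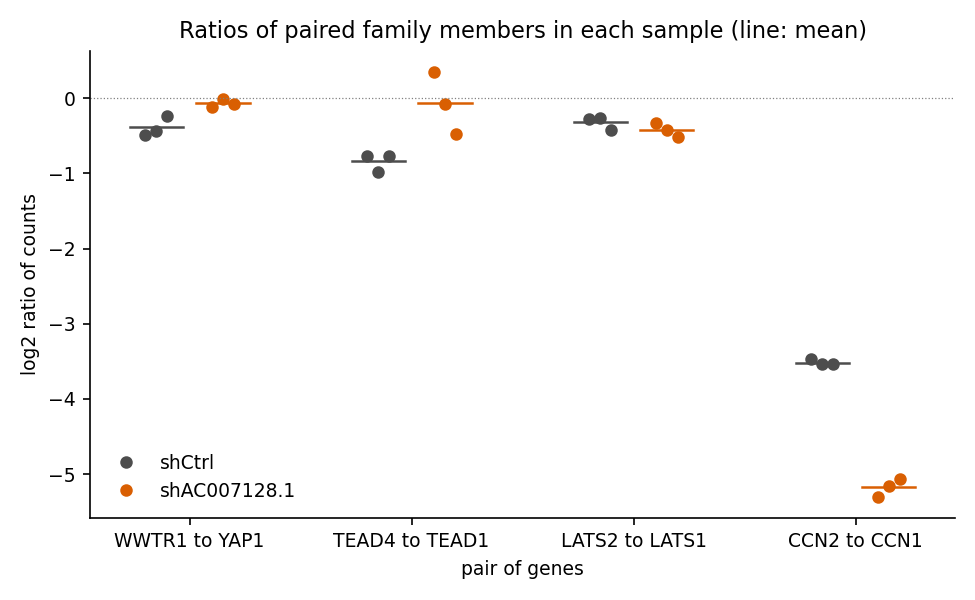
Log2 ratio of counts between paired genes in each library, grey for shCtrl and orange for shAC007128.1, with lines for group means. The CCN2 to CCN1 ratio moves from about -3.52 to -5.18 on average, and only the LATS2 to LATS1 ratio has overlapping groups.

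Further target genes were taken from a list of 25 commonly used YAP/TAZ targets outside the 10 members. Of the 23 tested, 2 rose and 13 fell at an adjusted p of at most 0.05, 1 was called higher and 6 called lower, and the median log2 fold change was -0.65, against -0.02 over all genes tested. Over all genes, 21% rose and 19.8% fell at that limit, and 5.57% were called higher and 10.1% lower. FOXF2, at 0 counts in every sample, and NT5E were removed by the filter. The shAC007128.1 samples lay wholly below shCtrl for 17 of the 23 and wholly above for 3, where over all genes the shares were 28.2% and 27%. The fall of CCN2 and AMOTL2 had more counterparts in this list than the rise of CCN1, and no test of the list was made.

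The called lower targets had a range of functions. CCDC80, a secreted matrix protein, had a log2 fold change of -2.29 (SE 0.22, adjusted p = 0.000245 by edgeR), with shCtrl replicate 3 at 28.7 CPM above 17.3 and 18.7 CPM in the other shCtrl samples, as for AMOTL2. INHBA, a subunit of activin, had -2.26 and IGFBP3, a binding protein of insulin-like growth factors, -2.01. GADD45A, a growth arrest gene, had -1.76, and F3, tissue factor of the clotting cascade, went from 625 to 630 CPM in shCtrl to 237 to 269 CPM in shAC007128.1 samples. FJX1 had -1.04, and its fold was under 2 without shAC007128.1 replicate 3 (log2 fold change -0.89, adjusted p = 8.68e-05 by edgeR). The 2 that rose were BIRC5, the mitotic protein survivin, with a log2 fold change of 1.16 (adjusted p = 0.00103 by edgeR), and TGM2, a transglutaminase, with 0.63 (adjusted p = 0.000823 by edgeR).

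CCN1, CCN2 and ANKRD1 are also targets of SRF and its actin-regulated MRTF cofactors, so a list of 20 genes of that program was set beside them. Of the 17 tested, 2 rose and 2 fell at an adjusted p of at most 0.05, and the median log2 fold change was -0.05. Over all genes 21% were higher and 19.8% lower at that limit, and no test of the list was made. With a sample left out, 2 to 4 rose and 2 to 3 fell. Smooth muscle actin ACTA2 had -1.25 (adjusted p = 0.0135 by edgeR), with -1.53 to -0.99 over the fits, though 2039 of its exonic bases are shared with other genes, and FHL2, a LIM-domain cofactor, had -0.56. Caldesmon, CALD1, had 1.02 (adjusted p = 0.00451 by edgeR), with 0.87 to 1.17 over the fits and so a fold under 2 in some of them, and beta-actin, ACTB, had 0.44. The list thus had 1 gene called higher and 1 called lower, where 5.57% and 10.1% of all genes were.

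Among other parts of the pathway, a list of 32 further Hippo pathway genes held 28 that were tested, and AMOT, VGLL1, VGLL3 and DCHS1 were removed by the filter. At an adjusted p of at most 0.05, 14 rose and 1, TAOK3, fell, and the median log2 fold change was 0.27, where 21% of all genes were higher and 19.8% lower at that limit and the median was -0.02. With a sample left out, 9 to 15 rose and 0 to 4 fell. Called at a fold of 2 were 0 genes by edgeR, by DESeq2 and by limma-voom, and 0 at an unadjusted p with that fold, against 5.57% higher and 10.1% lower over all genes by edgeR. Among the genes that passed, the largest rises were in VGLL4, a competitor of YAP1 for TEAD factors (log2 fold change 0.86, SE 0.13, adjusted p = 0.00187 by edgeR), in the polarity scaffold DLG5 (0.84), and in the upstream kinases TAOK1 (0.79) and TAOK2 (0.69). TAOK3 had -0.36 (adjusted p = 0.0422 by edgeR) and missed the threshold in 8 of 17 fits, with adjusted p from 0.0163 to 0.141. VGLL4 and DLG5 share 1716 and 1852 exonic bases with other genes.

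**Figure D5:**
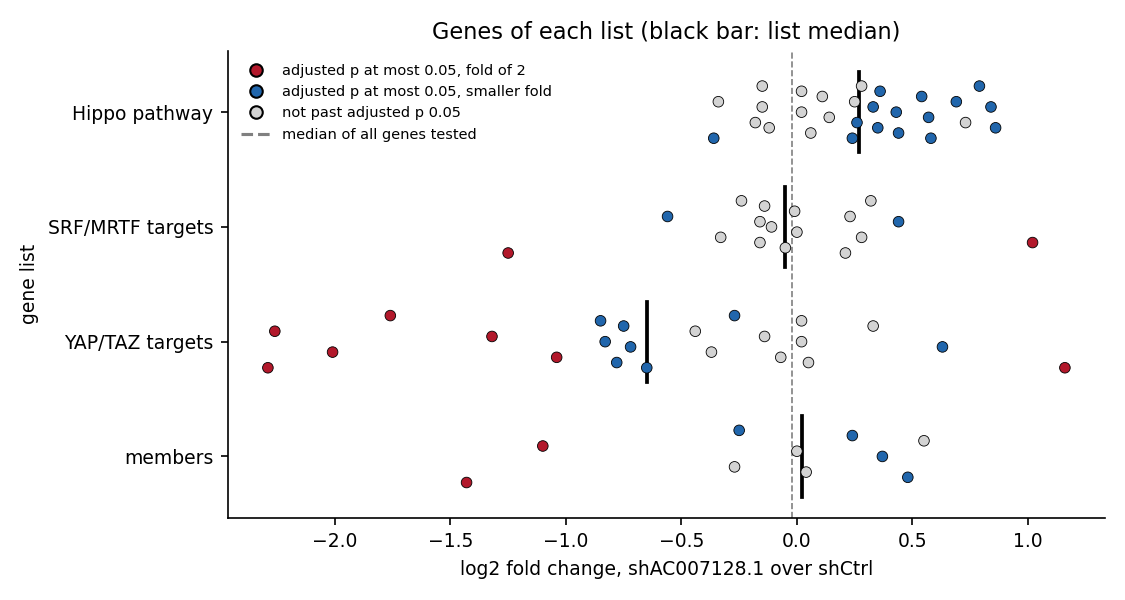
Log2 fold changes of the tested genes of the members and of the 3 lists, each point a gene, black bars the list medians (0.02 for members, -0.65 for YAP/TAZ targets, -0.05 for SRF/MRTF targets, 0.27 for the Hippo pathway) and the dashed line the median of all genes tested. Red genes were called, blue ones passed adjusted p at a smaller fold and grey ones did not pass.

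Other properties of the libraries differed between the groups as well, some of them in only part of the samples. Genes of the mitochondrial genome took 10.1%, 10.2% and 9.69% of counts in shCtrl and 7.8%, 7.68% and 9.72% in shAC007128.1 replicates 1, 2 and 3. By this share shAC007128.1 replicate 3 lay among the controls. For TEAD1 the same shAC007128.1 replicate 3 was the one among the controls. For WWTR1 (151 CPM), YAP1 (158 CPM) and AMOTL2 (99.2 CPM) that replicate lay furthest from them. The 20 most counted genes took 13.5% to 14.1% of counts in shCtrl and 10.3% to 11.9% in shAC007128.1 samples. Of the 9 squamous markers, 5 rose and 1 fell at an adjusted p of at most 0.05, where 21% of all genes were higher and 19.8% lower. KRT5 was 1.83-fold higher in shAC007128.1 cells (log2 fold change 0.87, adjusted p = 0.000706 by edgeR). Chosen after their values were seen, the keratins KRT6A (5.49-fold, adjusted p = 1.73e-05 by edgeR) and KRT14 (4.86-fold, adjusted p = 1.89e-05 by edgeR) were called higher. The marker that fell, chosen in the same way, was the desmosomal cadherin DSG3 (log2 fold change -1.09, adjusted p = 0.000122 by edgeR). In libraries thinned to the smallest total, CCN2 had a log2 fold change of -1.42 and AMOTL2 of -1.10, as large as without thinning. Log-scaled samples correlated at 0.979 to 0.981 within shCtrl, 0.969 to 0.973 within shAC007128.1 and 0.94 to 0.949 between the groups. In the fit without the 20 most counted genes, CCN2 had a log2 fold change of -1.43 and AMOTL2 of -1.10, and the same 6 members passed. The part of keratin expression and mitochondrial share in the members' differences was not tested.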

How the data were processed

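RNA of 6 KYSE150 samples, 3 shCtrl and 3 shAC007128.1, was measured by sequencing, and per the labels reads were called with CASAVA 1.8 and aligned with TopHat2 2.0.6. The study's methods name another TopHat version and the human genome hg38, and the labels list the mouse build mm10 beside GRCh38. The authors deposited estimated counts per gene, already rounded to whole numbers. The counting program, annotation release and strand use were not given in the sources used here. Of 67140 gene identifiers, 60357 (89.9%) were found in GENCODE v44, which gave symbols, positions and exon lengths. Samples held 55764405 to 78610457 counts, and the 3-count level equals 0.0373 to 0.0546 CPM.

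In R 4.3.3, edgeR 4.0.16 filtered low counts (filterByExpr, 47886 genes removed), scaled by TMM (factors 0.9668 to 1.042) and tested shAC007128.1 against shCtrl by quasi-likelihood with Benjamini-Hochberg adjustment over 19254 genes. This replaced the study's Cuffdiff test on FPKM, since counts were deposited, and kept its limits of adjusted p at most 0.05 and a fold of 2. Exact permutation tests over samples were used for AC007128.1 and the ratios. Standard errors are the log2 fold change over the square root of F. Tables and figures used Python 3.11.15, pandas 2.3.3 and matplotlib 3.10.9.

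The members and lists (Hippo pathway, YAP/TAZ targets, SRF/MRTF targets, and squamous, fibroblast, endothelial and leukocyte markers) were chosen with earlier results of these data known. PTPN14 stood in both the Hippo and the YAP/TAZ target list. Named were the members, AC007128.1, TEAD2, TEAD3, LATS1, up to 4 genes with the largest positive and 4 with the largest negative log2 fold change in each of the Hippo, YAP/TAZ target and SRF/MRTF lists among those with adjusted p at most 0.05, any further called gene of these 3 lists, and the most counted marker of each marker list. AMOTL1, LIMD1, WTIP, DSG3, KRT6A and KRT14 were added after their values were seen. At an adjusted p of at most 0.05, squamous markers gave 5 higher and 1 lower of 9 tested, fibroblast markers 2 higher and 1 lower of 3, endothelial markers 0 and 0 of 2, and leukocyte markers 0 higher and 1 lower of 2, where 21% of all genes were higher and 19.8% lower.

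Alternatives were DESeq2 1.42.0, limma-voom (limma 3.58.1), DESeq2 size factors, library size only, leaving out the 20 most counted genes, testing unfiltered genes, a minimum of 10 counts per sample, counts divided by 4 (since an earlier reading found low counts piled up at its multiples), libraries thinned to the smallest total, a replicate block, and leaving out each sample. Scripts were tested on simulated data.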

Additional observations from a re-analysis of the deposited data

How the results depend on the processing

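CCN2 was called lower in all 17 fits (log2 fold change -1.5 to -1.4) and TEAD4 passed in all of them (0.41 to 0.52). Members passing higher (3) were 1 with library size only, 1 with no filter, 2 with at least 10 counts, 1 with a replicate block and 1 to 3 with a sample left out. Those passing lower (3) were 2 with the block and 2 to 4 with a sample left out, and those called lower (2) were 1 to 2 with a sample left out. Hippo genes called lower (0) were 1 with no filter, DCHS1, which the filter removed from the full test, and 0 to 1 with a sample left out. Those passing higher (14) were 9 with no filter and 9 to 15 with a sample left out, and those passing lower (1) were 0 with thinned libraries, 0 with the block and 0 to 4 with a sample left out. SRF/MRTF genes called higher (1) were 0 with library size only, with no filter and with at least 10 counts, and 0 to 1 with a sample left out. Those called lower (1) were 0 to 1 with a sample left out and 1 in every other fit. Those passing higher (2) were 1 without the 20 most counted genes, which include ACTB, and 2 to 4 with a sample left out.

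The sign turned for YAP1 with library size only (-0.03), no filter (-0.00) and a sample left out (-0.09 to 0.11), for TEAD3 with library size only (-0.05), the unfiltered table (-0.02), a minimum of 10 counts (-0.01) and a sample left out (-0.02 to 0.07), and for AJUBA with a sample left out (-0.11 to 0.08). The median of all genes was -0.10 with library size only and -0.15 with no filter. The cause was not tested.

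Samples of the same number correlated in their deviations at 0.0306, -0.0254 and -0.0299, so no pairing was seen over all genes. A shared origin that moved few genes could be missed in this way. With a replicate block 977 genes were called higher and 1692 lower, and WWTR1 (adjusted p = 0.0564 by edgeR), LATS2 (0.0909), CCN1 (0.0546) and TAOK3 (0.0616) no longer passed. AC007128.1 rests on only 15 to 69 counts a sample. A single hairpin and cell line, and replicates of unstated origin, limit every comparison.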

Other observations

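Paralogs of the regulators AMOTL2 and AJUBA were also measured. AMOTL1 and LIMD1 are described here and were chosen after their values were seen. Of the others, AMOT was removed by the filter. WTIP, related to AJUBA, was higher without overlap but did not pass (log2 fold change 0.73, adjusted p = 0.0537 by edgeR). AMOTL1, which like AMOTL2 binds YAP1 at junctions, was at 267, 272 and 250 CPM in shCtrl replicates 1, 2 and 3 and at 374, 390 and 381 CPM in shAC007128.1 replicates 1, 2 and 3. The groups did not overlap, and the direction was opposite to that of AMOTL2. AMOTL1 rose by a log2 fold change of 0.54 (SE 0.06, adjusted p = 0.000562 by edgeR).

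LIMD1, a LIM-domain protein related to AJUBA, was at 59.8, 62.7 and 57.3 CPM in shCtrl replicates 1, 2 and 3 and at 79.2, 84.4 and 79.5 CPM in shAC007128.1 replicates 1, 2 and 3. Each group was narrow, with every shAC007128.1 sample above the controls. LIMD1 rose by a log2 fold change of 0.43 (SE 0.08, adjusted p = 0.00361 by edgeR), while AJUBA itself did not pass. LIMD1 shares 3150 of its exonic bases (24.9%) with LIMD1-AS1 on the opposite strand, and AMOTL1 shares 496 (4.95%) with another gene.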
